A study of Mus musculus with 31 samples.

Results

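The broad H3K27me3 domains of germ cells of the mouse embryo at E10.5 (the labels' embryonic day) were 386 stretches of the autosomes in which the mark formed peaks of at least 10000 bp. They were chosen by measured width: every H3K27me3 peak of that width on chromosomes 1 to 19 was taken from the 3 E10.5 peak lists, and overlapping peaks were merged. Of 34999 autosomal E10.5 peaks, 566 were that broad, and the 386 domains stand against 23148 other E10.5 regions made by merging the narrower peaks. All 9 H3K27me3 lists together held 28026 merged autosomal regions. H3K27me3 and H3K9me3 were mapped by native ChIP-seq in sorted primordial germ cells, the embryonic cells that later give eggs and sperm. Each mark had 3 libraries of E13.5 female cells, 3 of E13.5 male cells and 3 of E10.5 cells, with 1000 cells in each ChIP. All groups were wild type on the same C57BL/6 x GOF18delta_PE-EGFP background, in which an EGFP reporter labels germ cells, so only reporter-carrying embryos were studied. The E10.5 cells came from pools of embryos and carry no sex label. Whether replicates came from separate animals is not given, so p-values refer to the spread among libraries alone, part or all of which may be technical.

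H3K27me3 is trimethylation of lysine 27 on histone H3 and is laid down by Polycomb repressive complex PRC2. Its methyltransferase subunits are EZH2 and EZH1, and the EED subunit binds the finished mark and stimulates further methylation, which is how the mark can spread along a locus. Broad domains are best known over silent genes for developmental transcription factors, such as the Hox clusters, whereas H3K9me3 is the mark of heterochromatin and silenced transposons. In germ cells of these days DNA methylation is erased over most of the genome and the sexes begin to take separate paths. Positions are in mm9, the build in the submitters' processing notes. An mm9 annotation was not used here, so domains are called by position and no gene, promoter, exon or marker gene is assigned to them.

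The lists differed strongly in how much was called, and sequencing depth is unknown. Autosomal H3K27me3 peaks covered 1.51, 5.05 and 4.0 Mb in E13.5 female lists, 2.46, 0.155 and 3.98 Mb in E13.5 male lists, and 19.5, 2.07 and 34.7 Mb in E10.5 lists. The second male library stands apart, with 343 autosomal peaks, and 44.3% of its H3K27me3 length overlapped the H3K9me3 peaks of its counterpart list. In the 8 other such pairs of lists that share was between 0.0422 and 5.26%. The second E10.5 list was short as well and gave 1 broad peak, where replicate 1 gave 199 and replicate 3 gave 366. The peak names of the third E10.5 list give an input of the H3K9me3 ChIP as its control. The only replicate 3 input labelled E10.5 names no mark in its title, and whether both marks shared it is not given. The main comparisons of H3K27me3 at E13.5 are therefore given with and without the second male library. Male means and the values and rankings of single domains and chromosomes include it.

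The domains covered 6.55 Mb, which is 0.265% of autosomal length. Their width had a median of 14165 bp, with quartiles of 11636 and 18394 bp, and ran from 10008 to 138028 bp. By width, 214 domains were under 15000 bp, 92 lay between 15000 and 20000 bp, 56 between 20000 and 30000 bp, and 24 reached 30000 bp or more. The threshold fell within a continuous run of widths. The narrowest broad peaks measured 10008, 10029 and 10032 bp, and the widest peaks left outside measured 9986, 9983 and 9963 bp. E10.5 replicates 1 and 3 decided the membership: 150 domains had a broad peak in both, 200 in replicate 3 only and 36 in replicate 1 only. No single peak exceeded 43733 bp. Wider domains arose where peaks of 1 list bridged those of another, and 19 domains joined 3 or more broad peaks.

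The widest domain was chr15:102744838-102882865, 138028 bp long and merged from 8 broad peaks. It was followed by chr11:96140591-96216467 with 75877 bp, chr4:115583799-115651915 with 68117 bp and chr6:52146195-52206826 with 60632 bp. The next pair were chr19:44801642-44852618 with 50977 bp and chr2:74491836-74539268 with 47433 bp. The 10 widest ended with chr8:59790000-59829925, chr6:83376008-83413931, chr14:63855468-63892379 and chr1:78181758-78218578, which measured 36821 to 39926 bp. Several of them lay beside another domain: the gap to the nearest one was 0.634 kb for the chromosome 15 domain and 0.628 kb for that on chromosome 11.

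Domains were unevenly placed, with 44 on chromosome 2, 40 on chromosome 5, 38 on chromosome 4 and 37 on chromosome 11, and 4 on chromosome 16. Per 100 Mb, chromosome 11 held 30.4 domains, chromosome 5 held 26.2 and chromosome 19 held 26.1, whereas chromosome 3 held 6.9 and chromosome 16 held 4.07. Across the 19 autosomes the density of domains followed that of the other E10.5 regions (Spearman's rho 0.87) and, less closely, that of protein-coding genes (rho 0.62, gene numbers from RefSeq of GRCm38.p6). These are descriptions over chromosomes and carry no test. Along the chromosomes, counted in 5 equal parts from the centromere end where coordinates start, 48, 54, 67, 109 and 108 domains were found. The shares were 12.4, 14, 17.4, 28.2 and 28.0%, against 10.8, 17.4, 15.8, 25.5 and 30.5% of the other E10.5 regions. The last 2 parts thus held most regions of both kinds.

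**Figure D1:**
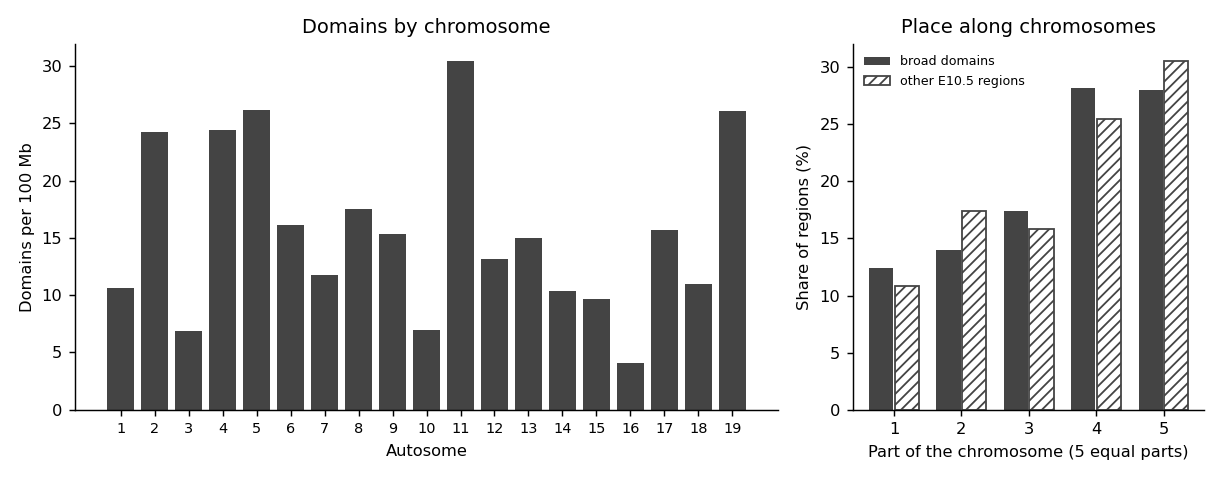
Placement of the 386 broad domains. The left panel plots domains per 100 Mb for each autosome, with chromosome 11 highest at 30.4 and chromosome 16 lowest at 4.07, and the right panel plots the share of domains (filled) and of other E10.5 regions (hatched) in each of 5 equal parts of the chromosomes, with 28.2 and 28.0% of domains in the last 2 parts.

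The domains were often neighbours. The median gap to the nearest domain was 374.1 kb, 156 domains had another within 100 kb, and these formed 59 groups, 23 of them with 3 or more members. The shortest gap was 0.61 kb and 69 domains had a neighbour within 5 kb. The largest groups had 7 domains each, at chr11:77583126-77793140 over 210.0 kb and at chr4:129617268-129829750 over 212.5 kb. The chromosome 4 group had 2.64, 18.1 and 16.5% of its domain length in peaks in E13.5 female lists and 8.84, 0 and 14% in male lists. Both groups were below the domains as a whole in all 6 E13.5 lists, and the second male list had no peak in either.

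At E13.5 the domains still held H3K27me3, as short peaks over a minor part of their length. H3K27me3 peaks covered 9.6, 23.5 and 18.2% of domain length in the E13.5 female lists (mean 17.1 ± 7.01%, SD, n = 3) and 13.9, 0.595 and 19.2% in the E13.5 male lists (11.2 ± 9.59%, SD, n = 3). In the E10.5 lists that chose the domains the same share was 81.5, 17.7 and 97.8%. No test of stage is given, because the rule used the E10.5 values. Within each group the share followed the length of the list, so a lower level of the mark and a smaller number of called peaks cannot be told apart.

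Compared with the other E10.5 regions, the domains had more of their length in H3K27me3 peaks in each of the 6 E13.5 lists. The other regions had 2.14, 7.75 and 5.84% of their length in peaks in female lists and 3.63, 0.296 and 5.85% in male lists. Domain shares were thus 4.48, 3.03 and 3.12 times those of the other regions in female lists, and 3.84, 2.01 and 3.29 times in male lists. The difference was 9.92 ± 5.48 percentage points (SD, n = 6 lists), positive in 6 of 6. An exact two-sided sign-flip permutation test over the lists gave p = 0.0312, the smallest that 6 lists allow, and 0.0521 after Benjamini-Hochberg adjustment over the 5 exact tests made, which misses the 0.05 threshold. Without the second male list the difference was 11.8 points, and with 5 lists the exact permutation test cannot go below p = 0.0625. When each E13.5 list was cut to its highest-scored peaks, as many as the 359 of the shortest list on all chromosomes, the difference was 0.108 points (exact permutation p = 0.281). The other regions were also less often shared between E10.5 lists. Of them 38.4% had a peak in E10.5 replicate 1, against 100% of the domains. Against the 6551 other regions with peaks in E10.5 replicates 1 and 3, the difference in uncut lists was 8.54 points (exact permutation p = 0.0312, adjusted p = 0.0521).

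**Figure D2:**
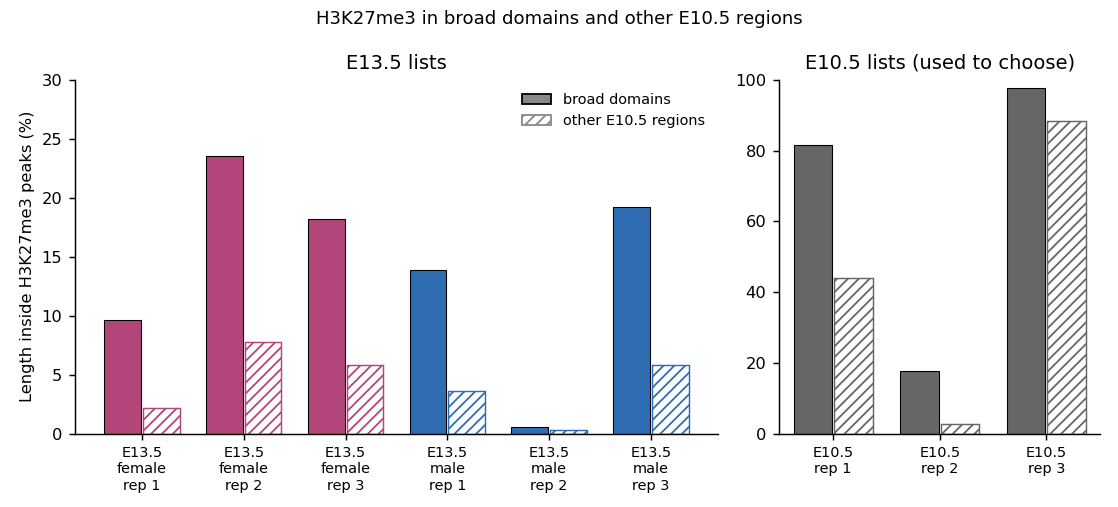
Percentage of length inside H3K27me3 peaks in each list, for the 386 broad domains (filled bars) and the other E10.5 regions (hatched bars). In the left panel the domain bar is the taller in each of the 6 E13.5 lists, from 0.595% in the second male list to 23.5% in the second female list; the right panel, on its own axis, shows the E10.5 lists whose peak widths chose the domains.

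In the longer lists the share kept was higher in wider classes of region, below as well as above the threshold. In the second female list, E13.5 peaks covered 2.62% of E10.5 regions under 1000 bp, 4.73% of those from 1000 to 2000 bp, 8.37% of those from 2000 to 5000 bp and 13.3% of wider regions that were no domain. Among the domains of that list it was 19.5% under 15000 bp, 23.1% up to 20000 bp, 25% up to 30000 bp and 31.9% beyond. In the third male list the last 4 classes had 15.9, 18.7, 20.9 and 26.2%. The order was not kept everywhere: the first female list had 1.0% under 1000 bp and 0.831% from 1000 to 2000 bp, and the first male list had 1.67 and 1.55% in these classes and 13.8 and 13.7% in domains of 15000 to 20000 and 20000 to 30000 bp. In the second male list regions under 1000 bp had 0.489%, above the 0.278 and 0.398% of the domains under 15000 and 20000 bp. The widest class had the highest share in all 6 E13.5 lists, down to 1.34% in the second male list. The 1181 other regions of 5000 bp or more, set against the domains in place of all other regions, had 4.06, 13.3 and 10.1% in female lists and 6.58, 0.43 and 9.74% in male lists, and the difference to the domains was then 6.8 points (exact permutation p = 0.0312). Among the domains alone, Spearman's rho of width with share lay between 0.21 and 0.35 in the 6 lists (n = 386 domains, a description over domains that share their libraries).

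**Figure D3:**
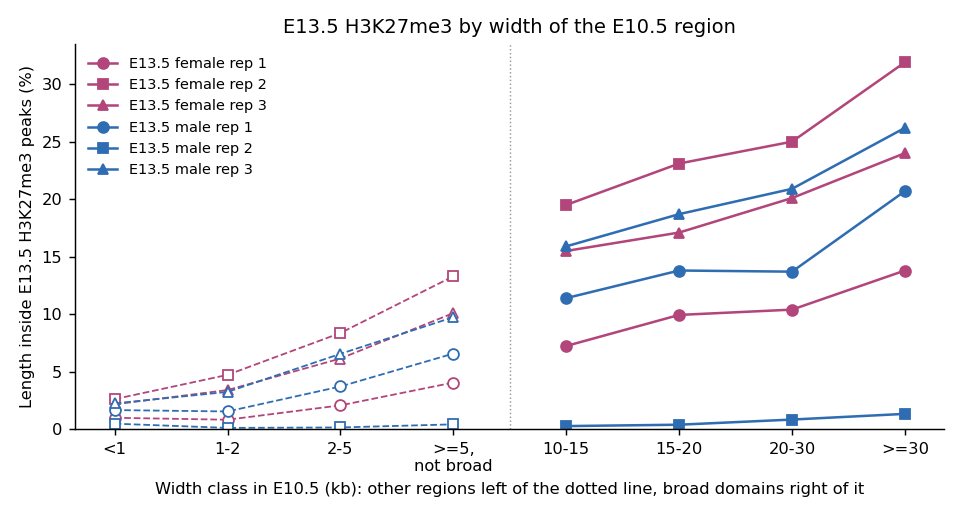
Percentage of length inside E13.5 H3K27me3 peaks by the width class of the E10.5 region, for each of the 6 E13.5 lists, with other regions left of the dotted line (open symbols) and broad domains right of it (filled symbols). The line of the second female list ends at 31.9% and that of the third male list at 26.2% in domains of 30000 bp or more, whereas the second male list reaches 1.34%.

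No peak as broad was called at E13.5, in lists that were all much shorter than E10.5 replicates 1 and 3. The second E10.5 list, of 2.07 Mb, also gave only 1 broad peak. Replicates 1 and 3, of 19.5 and 34.7 Mb, gave 199 and 366. Stage and length of the list therefore cannot be told apart here. None of the 6 E13.5 H3K27me3 lists had an autosomal peak of 10000 bp or more, and the widest peak within a domain measured 4267, 5426 and 7033 bp in female lists and 5827, 1826 and 7253 bp in male lists. The widest peak outside the domains measured 6101, 5497 and 4952 bp in female lists and 4893, 4666 and 5011 bp in male lists, so the widest peak of the list lay outside the domains in 3 of 6 lists. By the median, peaks within domains were wider than those elsewhere in the same list. Their median width was 608.5, 678 and 614 bp in female lists, against 348, 480 and 436 bp outside the domains. In male lists it was 734, 457 and 740 bp inside, against 430.5, 269.5 and 514 bp outside. Of the 100 widest autosomal peaks of a list, 60, 69 and 59 lay in domains in female lists, and 65, 43 and 59 in male lists. Domains that held any peak had a median of 2 to 4 peaks in the female lists and of 1 to 3 in the male lists, and the chromosome 15 domain had 41 peaks in the second female list.

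A large part of each E13.5 list fell inside the domains. They held 41.7, 30.5 and 29.8% of the covered length in female lists (34.0 ± 6.68%, SD, n = 3) and 37.1, 25.2 and 31.7% in male lists (31.3 ± 5.96%, SD, n = 3), on 0.265% of autosomal length. The difference between female and male lists was 2.65 points and did not pass an exact two-sided permutation test (p = 0.7, adjusted p = 0.7, where 3 lists against 3 cannot go below 0.1). This difference turned to -1.19 points without the first female list and to -0.419 points without the second male list. Set against the share of all autosomes in peaks, the domains were covered 157, 115 and 112 times as densely in female lists and 140, 95.1 and 120 times as densely in male lists. That ratio varied less between lists than the covered share did, and in the E10.5 lists, which chose the domains, it was 103, 212 and 69.5. Dense cover was not particular to the domains. In the second female list the other E10.5 regions had 7.75% of their length in peaks, against 0.204% of the autosomes. Set against those other regions, the domains were covered 2.01 (second male list) to 4.48 (first female list) times as densely.

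Nearly every domain had a peak in at least 1 E13.5 list. A peak was present in 287, 364 and 364 domains in female lists (74.4, 94.3 and 94.3%) and in 307, 62 and 339 domains in male lists (79.5, 16.1 and 87.8%). Of the other E10.5 regions 4.91, 13.9 and 11.3% had one in female lists and 6.98, 0.868 and 10.3% in male lists. Those regions had a median width of 703 bp against 14165 bp of the domains, and a wider region meets a peak more easily. In 54 domains all 6 lists had a peak, in 193 domains 5 lists did, and in 2 domains none did. The pair without any peak, chr2:25160801-25172249 and chr12:81112454-81123874, were both below the median width, at 11449 and 11421 bp, and each had its broad peak in the third E10.5 list only. Peaks of different lists met in part. Of domain length, 49.4% lay in a peak of any E13.5 list, 26% in exactly 1 list, 2.55% in at least 4 lists and 0.00966% in all 6. A share of 50% or more was reached by 0, 16 and 7 domains in female lists and by 0, 0 and 11 in male lists.

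E13.5 peaks were denser in the middle of the domains than toward their edges in each of the 6 lists, by a difference that missed the threshold after adjustment. Each domain was cut into 3 equal parts. The middle part had 12.2, 27 and 22.2% of its length in peaks in female lists and 17.5, 0.745 and 24.4% in male lists, whereas the outer parts had 8.3, 21.7 and 16.2% and 12.1, 0.52 and 16.7%. The difference was 4.78 ± 2.56 points (SD, n = 6 lists), positive in 6 of 6, with p = 0.0312 by the exact two-sided sign-flip permutation test, the smallest 6 lists allow, and 0.0521 adjusted over the 5 tests. Without the second male list it was 5.69 points, and among top-scored peaks in the number of the shortest list it was 0.134 points (exact permutation p = 0.25). Cut into 10 equal parts, the domains had 14.2% in part 1, 29.2% in part 6 and 14% in part 10 in the second female list. Just outside, 6.96% of the 5 kb before and 6.63% of the 5 kb after the domains was in peaks in that list, and 3.41 and 4.2% at 10 to 50 kb. The edges were also less covered in the first E10.5 list, at 66.8 and 67.8% in parts 1 and 10 and 84.2 to 87.7% in parts 3 to 8. In the second E10.5 list it was 6.33 and 7.14%, against 19.9 to 24.7%. The rule drew the domain ends where E10.5 peaks end, which favours a fall toward the edges in any list that shares peaks with E10.5. The test of middle against outer parts cannot tell such a fall from one particular to E13.5.

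**Figure D4:**
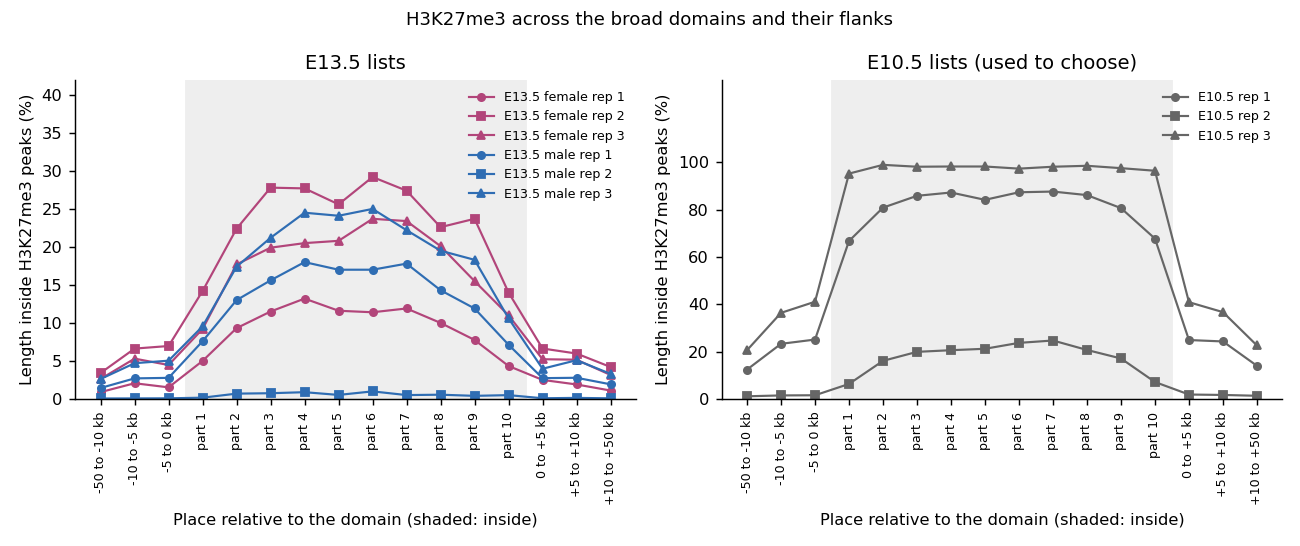
Percentage of length inside H3K27me3 peaks across the 386 domains, divided into 10 equal parts (shaded), and in their flanks up to 50 kb, for each E13.5 list (left) and each E10.5 list (right, own axis). The E13.5 lines are highest inside, for example 29.2% in part 6 against 14.2 and 14% in parts 1 and 10 of the second female list, and the second male list stays under 1%.

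Bases that the short second E10.5 list had called were kept more often. In female lists 16.5, 35.5 and 28.4% of these bases lay in E13.5 peaks, against 8.11, 20.9 and 16% of the other domain bases. In male lists it was 26.9, 1.4 and 33.2%, against 11.1, 0.42 and 16.2%. The order was the same in all 6 lists. No test is given, since the second E10.5 list belongs to the rule.

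Among the widest domains, chr15:102744838-102882865 had 13.8, 35.0 and 22.7% of its length in peaks in E13.5 female lists and 25.2, 2.14 and 32.1% in male lists. The groups overlapped, with the first female list the lowest apart from the second male one. The domain chr11:96140591-96216467 had 28.9, 34.7 and 37.3% in female lists and 27.2, 0.38 and 29% in male lists, so that the first female list lay within the range of the male ones. The domain chr4:115583799-115651915 had 8.66, 33.3 and 29.2% in female lists and 13.7, 1.24 and 15.9% in male lists. The domains chr6:52146195-52206826 and chr2:74491836-74539268 had means of 30 ± 11 and 27.3 ± 11.9% in female lists, and of 20.2 ± 16.2 and 23.9 ± 20.3% in male lists (SD, n = 3). In each of the 10 widest domains the second male list had the lowest share, from 0 to 2.38%. The other 5 lists ran from 5.05% (first female list, chr1:78181758-78218578) to 49.8% (second female list, chr6:83376008-83413931).

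**Figure D5:**
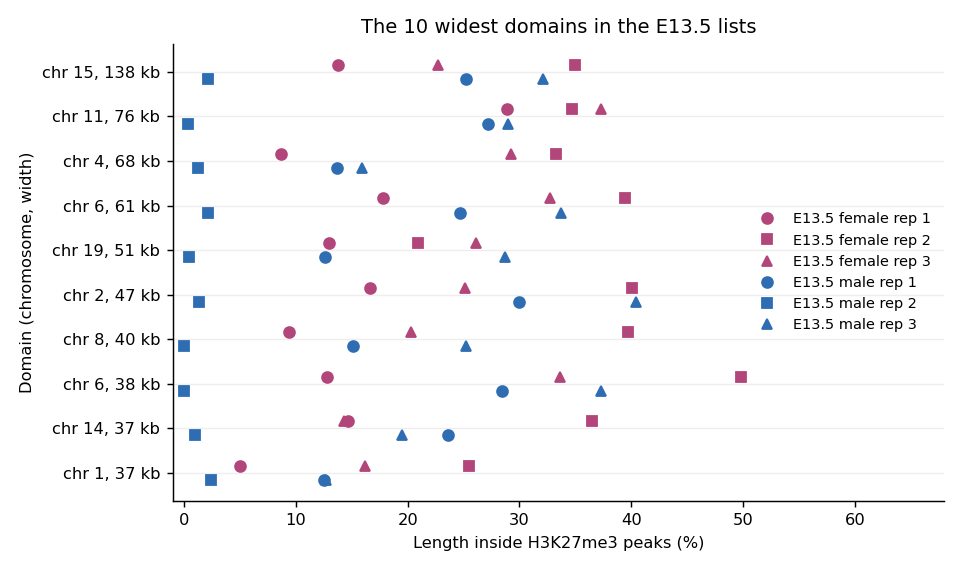
Percentage of length inside H3K27me3 peaks for the 10 widest domains, ordered by width from the top, in the 3 E13.5 female lists (upper points of each row) and the 3 E13.5 male lists (lower points). The second male list is the lowest in each row, at 0 to 2.38%, and the other lists overlap between the sexes.

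The 10 domains with the highest mean share measured 11555 to 21328 bp, where the median of all domains was 14165 bp. By width class, domains of 30000 bp or more still had the highest share in all 6 lists. Over the 6 E13.5 lists the mean share per domain had a median of 12.5%, with quartiles of 6.86 and 18.3%. The highest mean, 39.3%, belonged to chr6:83357716-83371323, which is 13608 bp long and had 33.7, 69.8 and 46.1% in female lists and 33.4, 0 and 52.9% in male lists. It stood 0.724 kb from chr6:83345437-83356991, which had 4.05, 52.3 and 52.8% in female lists and 20.6, 0 and 49.3% in male lists and was also among the 10 highest. The widest domain on that stretch, chr6:83376008-83413931, lies next to them. The second, chr7:138686829-138702502, had 20.1, 55.5 and 50.6% in female lists and 14.7, 0 and 56.3% in male lists. More even across the 5 longer lists were chr7:56884799-56898674, with 32.5, 41.9 and 41.6% in female lists and 38.9, 0 and 42.1% in male lists, and chr9:74691953-74707646, with 32.5, 40.2 and 32.1% and 37.4, 0 and 46.7%. The other members of the 10 highest were chr1:186537316-186555972, chr5:120874285-120891121, chr5:120276483-120290745, chr2:33414485-33435812 and chr6:114470000-114482594, with means of 29.8 to 32.8%.

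The difference between female and male cells in the share of domain length kept was within the spread of the lists. The mean difference, female minus male, was 5.83 points (exact two-sided permutation p = 0.6, adjusted p = 0.7), and without the second male list it was 0.496 points. Across all 4740 H3K27me3 regions that had peaks in at least 3 of the 9 lists, limma on each region's share of its list (ppm of the list's covered length, log2 with 100 ppm added) called 0% at a Benjamini-Hochberg adjusted p of 0.05. Of the 386 domains 384 entered, and 0 were called. The E10.5 lists counted toward the 3 lists, and every domain has a peak in E10.5 replicates 1 and 3. Domains thus entered more easily than other regions, and the E10.5 values that chose them also entered the spread of the fit. With only the 6 E13.5 lists in the fit, the smallest limma adjusted p of any domain was 0.126. Without the second male list it was 0.0809. At an unadjusted p under 0.05 there were 362 regions, 61 of them domains. The median log2 difference, female minus male, was 0.72 over the domains and 0.23 over all regions tested. Without the second male list the medians were 0.01 and 0.09, so the shift of the domains rested on that list.

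In some domains the female and male lists did not overlap. Of the 20 splits of 3 lists against 3, 1 puts every female list on top and 1 every male list. Some such domains therefore arise without any difference between the sexes, and whether the counts exceed this was not tested. Every female list was above every male list in ppm in 42 of the 384 domains, or 10.9%, where the share over all regions tested was 4.77%. Every male list was above every female list in 13 domains, or 3.39%, against 0.717% over all regions. Without the second male list these counts were 45 domains (11.7%, against 4.85% over all regions) and 55 domains (14.3%, against 8.35%), so the predominance of domains higher in female lists ended. Fewer lists come apart more easily, so the counts with and without that list are not like for like. The regions tested had no peak in 59.0% of their E13.5 values, and the domains in 25.2%, and a region at 0 in lists of both sexes cannot be apart. Domains also passed the filter of the test more easily, since each has a peak in E10.5 replicates 1 and 3.

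The domain with the smallest adjusted p was chr17:48039782-48051489. It had 22.5, 32.4 and 40.0% of its length in peaks in female lists and 0, 0 and 5.46% in male lists, while the E10.5 lists had 72.0, 5.23 and 100%. In ppm the log2 difference was 3.19 ± 0.51 (SE; limma adjusted p = 0.0608). The widest difference in share was at chr14:49281154-49296743, with 20.5, 55.0 and 23.3% in female lists and 5.41, 0 and 0% in male lists. In ppm its log2 difference was 3.28 ± 0.76 (SE; limma adjusted p = 0.164). A close neighbour, chr14:49321041-49332562, had 17.1, 42.1 and 31.7% in female lists and 6.23, 0 and 0% in male lists. The remaining members of the 5 largest were chr5:75350066-75360601, with 19.1, 46.9 and 30.5% against 3.48, 0 and 0%, and chr5:119506538-119520233, with 21.2, 63.0 and 17.5% against 5.07, 0 and 7.68%. In all 5 the female and male lists did not overlap, though they were picked for this difference.

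In the opposite direction, chr6:114509183-114522114 had 0, 17.3 and 18% in female lists and 27.8, 5.91 and 75.2% in male lists. Its share of the list was higher in each male list, with a log2 difference in ppm of -3.02 ± 0.845 (SE, limma adjusted p = 0.242). In the short second male list, of 0.155 Mb, that share came from 2 peaks with 0.764 kb of the domain. Its neighbour chr6:114470000-114482594 had 1.49, 32.9 and 29.4% in female lists and 37.0, 2.52 and 75.6% in male lists. On chromosome 11, chr11:57640165-57655139 had 3.96, 11 and 7.07% in female lists and 23.8, 1.26 and 54.4% in male lists. On chromosome 17, chr17:45674576-45685874 had 0, 8.28 and 7.42% in female lists and 8.96, 1.68 and 61.1% in male lists. The fifth, chr10:79767982-79779663, had 3.15, 2.87 and 6.54% in female lists and 23.2, 0 and 37.3% in male lists. In percent of length the female and male lists overlapped in all 5, each time through the second male list, whereas in ppm of the list they overlapped in the fifth domain only. The ppm of the second male list rested on very little length. It had 1 peak each in the chr6:114470000-114482594, chromosome 11 and chromosome 17 domains, with 0.318, 0.188 and 0.19 kb. All 5 had their highest share in the third male list.

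H3K9me3 peaks were nearly absent from the domains at both stages. They covered 0.0152, 0.028 and 0% of domain length in E13.5 female lists, 0.0541, 0.0143 and 0.0328% in E13.5 male lists and 0, 0.0257 and 0% in E10.5 lists. In the other E10.5 regions the shares were 0.327, 0.249 and 0.442% in E13.5 female lists, 0.551, 0.475 and 0.414% in E13.5 male lists and 0.473, 0.675 and 0.0607% in E10.5 lists. The domains were lower in 9 of 9 lists, by 0.388 ± 0.172 points on average (SD, n = 9), and the exact two-sided sign-flip permutation test gave p = 0.00391, the smallest 9 lists allow, and 0.0195 adjusted over the 5 tests. The size depended on the E10.5 H3K27me3 lists that define the regions: the difference was -0.711 points without replicate 3, -0.249 points without replicate 1 and -0.164 points against other regions found in both. H3K9me3 peaks covered 42.7 Mb in E10.5 replicate 2 and 74.0 Mb in E13.5 male replicate 1, and the domains were low in these long lists. There 1.73 and 2.99% of the autosomes lay in peaks. In E10.5 replicates 1 and 3 it was 0.0728 and 0.0142%, so 0% of the domains shows little. In these 2 lists the other regions were above the autosomes, as in E13.5 female replicates 1 and 3 (autosomes 0.196 and 0.133%). The difference there partly reflects a raised share of the other regions. In the remaining lists the other regions were below the autosomes, and the domains were below them in every list.

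Narrow regions carried most of this difference. Other regions under 1000 bp had 0.0858 to 2.27% of their length in H3K9me3 peaks over the 9 lists, and those of 5000 bp or more had 0.104 to 0.316%, which is still above the 0 to 0.0541% of the domains. In the flanks, 10 to 50 kb after the domains, H3K9me3 peaks covered up to 0.915% in the first male list. That list had 0.165% at 0 to 5 kb and 0.409% at 5 to 10 kb after the domains. All these flank values were below the 2.99% of the autosomes in that list. In all, 374 domains had no H3K9me3 peak in any list, 12 had one in some list and 4 in at least 2 lists. The highest single value was 9.97% of chr2:19225910-19239212 in the second E10.5 list, where E10.5 replicates 1 and 3 had 0%. The domain chr1:140733354-140746439 had the highest means at E13.5, with 6.27, 5.16 and 0% in female lists and 8.2, 0 and 5.75% in male lists, and it also kept 14.1, 4.68 and 31.7% of H3K27me3 in female lists and 24.6, 0 and 25.5% in male lists.

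The share kept varied from domain to domain in a similar order in the longer lists. Spearman's rho of the 386 domain shares lay between 0.53 and 0.64 within the female lists and was 0.67 between male replicates 1 and 3. Between a female list and male replicate 1 or 3 it was 0.40 to 0.50, and with the second male list it was 0.17 to 0.31 over the 5 others. These values describe domains that share their width and E10.5 origin, and they carry no test. By chromosome, the female mean lay between 13.7% on chromosomes 7 and 18 and 20.9% on chromosome 5, and the male mean between 3.66% on chromosome 18 and 16.9% on chromosome 16. On chromosome 18, with 10 domains, the female lists had 6.0, 22.4 and 12.6% and the male lists 3.13, 0 and 7.85%, so the groups overlapped.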

How the data were processed

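The data were 18 lists of broad peaks, 1 for each H3K27me3 or H3K9me3 ChIP library, called per sample against an input per the peak names in the deposited files. The 13 input samples were not analysed here, and the label of 1 of them gives a stage that its title contradicts. The submitters' processing notes name MACS2 2.1.0, BWA 0.7.5a, CASAVA 1.8.4, deepTools 3.3.0, SAMtools and Picard, and the build mm9. How each was used is not given in the sources used here, nor are peak thresholds. The deposited score of each peak is the authors' own value on an unknown scale and only ranked or filtered peaks within lists. Peak coordinates were used as the authors deposited them. With 1000 cells and 250 ng of antibody per ChIP and no read counts in the lists, depth is unknown and no counting interval is given.

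Overlapping peaks of a list were merged, and each region's bases in peaks were summed over chromosomes 1 to 19 (Python 3.11.15, pandas 2.3.3, numpy 2.4.6; figures with matplotlib 3.10.9). Domains are E10.5 H3K27me3 peaks of at least 10000 bp, merged on overlap of 1 bp or more; all other merged E10.5 regions that meet no domain served for comparison. The autosomal length, 2471.96 Mb, is the sum of the last peak ends. The 5 exact tests over libraries (20 splits of 3 against 3, 64 or 512 sign assignments) were two-sided and Benjamini-Hochberg adjusted together. Female and male regions were compared with limma 3.58.1 (R 4.3.3) on log2(ppm + 100) in 1 fit of the 9 H3K27me3 lists, over the regions with peaks in at least 3 lists, and such differences understate change at low values. The tests were tried on simulated data first.

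The members, lists and tests were chosen with earlier results of these data known. Named are the 10 widest domains, the 10 with the highest mean E13.5 share, those with no E13.5 peak, the 5 with the largest female minus male difference in each direction, and that with the highest mean H3K9me3 share in each group. Groups of neighbouring domains and the chromosomes named were picked after their values were seen. The planned gene lists were not run, because the annotation at hand is of GRCm38, and it gave only the number of protein-coding genes per chromosome. Alternatives were other widths (5000 and 15000 bp), merging within 5000 bp, score filters, pseudocounts, scaling, the replicate block and leaving out each library. Other regions of 5000 bp or more, other regions found in E10.5 replicates 1 and 3, domains of the first list alone, and counts without the second male list were chosen after seeing the data.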

Additional observations from a re-analysis of the deposited data

Results flagged for a closer look

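Outside the autosomes, to which the domains are limited, chromosome X held 5 H3K27me3 peaks of at least 10000 bp at E10.5, drawn to attention as signal in data the comparisons do not use. The first list had 1 of them, the second 0 and the third 4, among 318, 26 and 828 peaks on X, and they measured 10301 to 20726 bp. The E10.5 cells carry no sex label, and the X domains were not followed to E13.5.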

How the results depend on the processing

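The number of domains, 386, was 1377 with a width of 5000 bp, 164 with 15000 bp and 199 without the third E10.5 list. The lower H3K9me3 share of domains stayed past the threshold under all 19 alternatives, at -0.711 to -0.249 points with a library left out and -0.389 to -0.164 otherwise. By the mean over lists, domains stayed above other regions in E13.5 H3K27me3 under all 19 alternatives. The mean was 8.76 to 11.8 points when a library was left out, 4.45 points at a score of at least 20 and 6.8 points against other regions of 5000 bp or more. It was 6.59 points in peaks at or above each list's median score (exact permutation p = 0.0625). In as many top-scored peaks as the shortest list holds it was 0.108 points (exact permutation p = 0.281). With 6 lists a p above 0.0312 means that the domains were not higher in every list. This held in these last 2 settings and for the percent of regions with 10 percent of their length in peaks (exact permutation p = 0.0625). The middle parts of domains stayed higher by the mean over lists under all 16, at 3.93 to 5.69 points with a library left out and 1.99 points at a score of at least 20. They were not higher in every list without E10.5 replicate 1 (4.2 points, exact permutation p = 0.0625). The same held at or above the median score (3.38 points, exact permutation p = 0.0625) and in top-scored peaks (0.134 points, exact permutation p = 0.25). The female minus male share, 5.83 points, moved between 0.496 and 9.82 with a library left out (2.64 without the second female list, 9.57 without the first, 9.82 without the third male list), to 0.347 at a score of at least 20 and to 0.0391 in top-scored peaks. The share of the list inside domains, 2.65 points, turned to -0.000738 without the third E10.5 list, -1.19 without the first female list and -0.419 without the second male list, and was 5.53 without the first male list, 6.45 at a score of at least 20, 12.9 in peaks at or above the median score and 0.685 with a width of 15000 bp; the cause was not tested. limma called 1 region in place of 0 with a pseudocount of 10 ppm (higher in male), with no filter (higher in female) and without the second male list (higher in male), and 0 to 1 over all libraries left out; no domain was called in any setting.

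No pairing of lists by replicate number was evident: same-numbered female and male lists correlated at 0.01, -0.07 and 0.10 in their deviations from group means. Same-numbered E10.5 lists gave -0.1, -0.13 and 0.1 with the female lists and 0.01, 0.05 and 0.09 with the male lists. Values this low do not exclude a pairing, since many regions had no peak in a list. With the replicate block the share difference of 5.83 points had an exact permutation p of 1.0, the list difference of 2.65 points had 0.5, and limma called 0 regions. With 3 pairs that permutation test cannot reach 0.05.

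Short lists limit what can be seen: 343 autosomal peaks in the second male list, no read depth for any list, and 3 libraries a group, with which no comparison of female and male by permutation can go below p = 0.1.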
